A study of Drosophila melanogaster with 12 samples.

Results

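The genes described are 45 genes of the machinery of mitosis and cytokinesis in Drosophila melanogaster. They were listed by gene symbol and kept where at least 10 normalised counts were present in at least 3 of 12 libraries. All 45 of the 45 listed were among the 12216 genes of the deposited table, and all 45 passed, with at least 10 normalised counts in each of the 12 libraries. They were tested together with the other genes that passed the same filter, 8455 genes in all.

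RNA was sequenced from wing imaginal discs, the larval epithelial sheets that grow by cell division and later form the adult wings. The larvae were w1118, given as wild type, and were kept at 25°C. Discs came from larvae 24 h into the third instar and spent 2.5 h in culture with 0, 20, 200 or 2000 nM 20-hydroxyecdysone (20E), the active moulting hormone. Each dose had 3 libraries, and the series title asks whether the hormone's receptor promotes or restrains proliferation depending on how much hormone is present. All 4 doses share the genotype, the stage and the culture, so the 0 nM discs are cultured discs without hormone and not freshly dissected ones.

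Entry into mitosis is driven by the kinase Cdk1 bound to mitotic cyclins and amplified by the Aurora and Polo kinases. Condensin and topoisomerase II shape the chromosomes, kinetochores and motor proteins attach them to the spindle, and the spindle checkpoint holds separase inactive until every chromosome is attached. Centralspindlin and anillin then help divide the cell in cytokinesis. Many of these genes are transcribed mainly in G2 and mitosis, so their RNA in a dividing tissue reflects both the share of cells in those phases and the RNA of each cell. In these bulk libraries fewer cells of a kind and less RNA per cell cannot be told apart.

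Most of the 45 genes were lower at the higher doses of 20E, and the median of their fold changes was lower at each higher dose. Against 0 nM, 36 of 45 fell and 1 rose at 2000 nM, 29 fell and none rose at 200 nM, and none passed the threshold at 20 nM. Of all genes tested, 15.5% fell and 15.4% rose at 2000 nM, 10.4% and 9.92% at 200 nM, and 1.54% and 2.97% at 20 nM. The median log2 fold change of the 45 genes against 0 nM was -0.14 at 20 nM, -0.34 at 200 nM and -0.45 at 2000 nM, while the median of all genes tested was 0.00 at each dose. The falls at 2000 nM left the genes 13.9% to 49.2% below their 0 nM level. Levels are normalised counts, the authors' read counts divided by a size factor per library, and a gene is called when limma's two-sided moderated test gives an adjusted p under 0.05. That adjustment runs over all 8455 genes (Benjamini-Hochberg), and log2 fold changes are on the log2(normalised count + 1) scale.

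Facts of the whole series that touch these genes were as follows. The reads counted on the 12216 genes of the deposited table numbered 9034719 to 27006374 per library. Of 12 wing disc markers all were detected and 9 rose at 2000 nM, where 15.4% of all genes tested did. The 12 markers summed to 64565 to 72086 normalised counts at 2000 nM, against 48269 to 52899 at 0 nM. The 8 markers of adult muscle precursors, which lie on the disc and also divide, summed to 4367 to 5550 at 2000 nM, against 4930 to 5609 at 0 nM. Of these, 3 fell and 2 rose, where 15.5% and 15.4% of all genes tested did. The rises numbered 1 when 0 nM replicate 2 or 3, or 2000 nM replicate 1 or 3, was left out. The falls numbered 2 without 0 nM replicate 3 or without 2000 nM replicate 1. The 5 tracheal markers summed to 6965 to 7238 at 2000 nM, against 5068 to 6022 at 0 nM. In that list Cht5 rose by 1.62 log2 and trh by 0.41, while btl (-0.28), Gasp (0.13) and tyn (0.01) were not called. The 7 blood cell markers summed to 37.9 to 125 normalised counts at 2000 nM, against 26.6 to 87.7 at 0 nM. Among them Hml had 84.1, 14.2 and 23.3 at 2000 nM, against 64.1, 37.3 and 10.1 at 0 nM. The 7 fat body markers summed to 183 to 286 at 2000 nM, against 46.9 to 2518 at 0 nM, where replicate 3 stood apart as the highest. Of these, 0 fell and 1 rose, Fbp1, by 2.67 log2 (adjusted p = 0.0178), from a mean of 2.83 normalised counts at 0 nM. That call was lost without 0 nM replicate 1 or without 2000 nM replicate 2 or 3. Without 0 nM replicate 2 the falls numbered 3. The 5 markers of neurons and glia summed to 623 to 803 at 2000 nM, against 339 to 465 at 0 nM, nearly all of it elav. The neuronal gene elav rose by 0.93 log2 (adjusted p = 5.26e-04), nSyb and para were not called, and the glial gene repo was near 0. The part of these cell types in the falls was not tested. Without 0 nM replicate 3, the median of the 45 genes at 2000 nM was -0.44 log2 and 31 fell, while Bub1, the gene that rose, was not called.

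The sum over the 45 genes was lower at 200 and 2000 nM than at 0 nM in every library. It was 130271, 115943 and 126891 normalised counts at 0 nM, 125061, 108985 and 106930 at 20 nM, 105808, 95769 and 98237 at 200 nM, and 97326, 91064 and 86382 at 2000 nM. Every 200 nM and 2000 nM library lay below every 0 nM library, whereas the 20 nM libraries overlapped those at 0 nM through replicate 1. By dose the sum was 124369 ± 7490, 113659 ± 9928, 99938 ± 5231 and 91591 ± 5491 normalised counts from 0 to 2000 nM (SD, n = 3 each). As a share of the reads counted on all genes of the deposited table, the 45 genes took 0.556% to 0.631% at 2000 nM. At 0 nM they took 0.757% to 0.866%. The 4 dose means fell in the order of the doses for 37 of 45 genes (82.2%), against 17.0% of all genes tested. The 8 exceptions were Cdk1, borr, Klp10A, tacc, mud, Bub1, cid and thr.

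**Figure D1:**
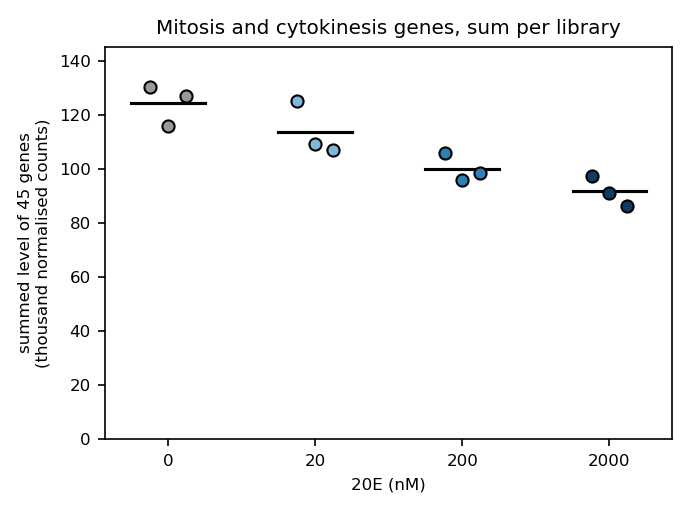
Summed normalised counts of the 45 mitosis and cytokinesis genes (y axis, scaled as its label states) in each of the 12 libraries by 20E dose in nM (x axis); points are libraries and lines are dose means. The 200 and 2000 nM libraries all lie below the lowest 0 nM library at 115943, and 20 nM replicate 1 lies among the 0 nM libraries.

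Within the highest dose comparison, 2000 against 0 nM, 36 of the 45 genes fell where 15.5% of all genes tested did, and 1 rose where 15.4% of all did. For 34 of the 45 every 2000 nM library lay below every 0 nM library, a pattern held by 21.0% of all genes tested, and for 1, Bub1, every one lay above, as for 20.7% of all. The results below follow the genes by role.

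Of the 5 genes for cyclins, Cdk1 and the activator of the anaphase-promoting complex, 4 fell. CycB (FBgn0000405) encodes a B-type cyclin whose destruction ends mitosis. It had 3546, 3141 and 3318 normalised counts at 0 nM, 2984, 2916 and 2860 at 20 nM, 2467, 2712 and 2342 at 200 nM, and 2287, 2203 and 1897 at 2000 nM. No library of a higher dose overlapped those of a lower one, in any of the steps. Its log2 fold change was -0.41 ± 0.08 (SE) at 200 nM and -0.65 ± 0.08 at 2000 nM against 0 nM, with adjusted p = 0.0016 and 2.14e-05. CycB3 (FBgn0015625), another B-type cyclin gene, had 2364, 2114 and 2422 normalised counts at 0 nM, 2277, 1942 and 2137 at 20 nM, 1735, 1854 and 1731 at 200 nM, and 1493, 1538 and 1476 at 2000 nM. Its 2000 nM libraries were all lower than its 200 nM libraries, and the 0 and 20 nM libraries were mixed. CycB3 fell by 0.61 ± 0.07 log2 at 2000 nM (adjusted p = 1.44e-05). The fall of fzy, the Cdc20 homologue that activates the anaphase-promoting complex, was -0.32 ± 0.08 log2 (adjusted p = 0.0105), and that of CycA, a cyclin of S phase and mitosis, -0.22 ± 0.08 (0.0382). The call of CycA ended without 0 nM replicate 1 (0.118) or replicate 3 (0.113), 20 nM replicate 2 (0.0524), or 2000 nM replicate 2 (0.0788) or replicate 3 (0.149). The call of fzy ended without 2000 nM replicate 3, just over the threshold, and without that library the falls in this group numbered 2.

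Cdk1 (FBgn0004106), the kinase that these cyclins activate, did not follow them. It had 1363, 1348 and 1445 normalised counts at 0 nM, 1348, 1405 and 1406 at 20 nM, 1497, 1348 and 1340 at 200 nM, and 1367, 1421 and 1349 at 2000 nM. The libraries of all 4 doses overlapped. Its log2 fold change at 2000 nM was -0.01 ± 0.06, with a 95% interval of -0.14 to 0.13 that does not reach the fall of either B-type cyclin gene, and an adjusted p of 0.953.

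All 5 genes for mitotic kinases and the chromosomal passenger complex fell. Of these, aurA (FBgn0000147), whose kinase matures centrosomes and builds the spindle, had the largest log2 change. It had 347, 294 and 365 normalised counts at 0 nM, 277, 274 and 262 at 20 nM, 234, 249 and 195 at 200 nM, and 197, 188 and 168 at 2000 nM. Each 20 nM library was below each 0 nM library and above each 200 nM library. The gene fell by 0.57 ± 0.12 log2 at 200 nM (adjusted p = 0.00255) and by 0.85 ± 0.12 at 2000 nM (6.19e-05), or 44.7% below 0 nM. The Aurora B gene aurB, the kinase of the passenger complex, fell by 0.64 ± 0.10 log2 at 2000 nM, and its scaffold gene Incenp fell by 0.45 ± 0.07. The Polo kinase gene polo fell by 0.34 ± 0.07 log2. For polo, aurB and Incenp every 2000 nM library was below every 0 nM library. Borealin, the third passenger subunit listed, is encoded by borr, which fell by 0.29 ± 0.10 log2 with adjusted p = 0.0362. That call was the least firm of the group and ended without 0 nM replicate 1 (0.0621) or replicate 3 (0.151), 20 nM replicate 2 (just over 0.05), or 2000 nM replicate 1 (0.067) or replicate 3 (0.169). About 9.7% of the aurA exons overlap those of CG12213 on the other strand, and that gene rose by 0.25 log2 at 2000 nM.

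Central spindle and cytokinesis genes fell without exception, 6 of 6 at 2000 nM and 6 of 6 at 200 nM, although at 200 nM the call of sti was lost when any of 8 single libraries was left out. Leading them by adjusted p was tum (FBgn0086356), which encodes the RacGAP subunit of centralspindlin. It had 3737, 3227 and 3864 normalised counts at 0 nM, 3422, 3120 and 3043 at 20 nM, 2318, 2397 and 2455 at 200 nM, and 2199, 2145 and 2003 at 2000 nM. The 20 nM libraries overlapped those at 0 nM, and a gap with no library in it separated both from the 200 nM libraries. The log2 fold change of tum was -0.59 ± 0.07 at 200 nM (adjusted p = 4.31e-05) and -0.77 ± 0.07 at 2000 nM (2.31e-06), each against 0 nM. Its kinesin partner in centralspindlin, pav, fell by 0.62 ± 0.09 log2 at 2000 nM. The gene feo (FBgn0030241), whose product bundles antiparallel microtubules of the central spindle, had 2541, 2529 and 2756 normalised counts at 0 nM, 2447, 2215 and 2326 at 20 nM, 1985, 1919 and 1816 at 200 nM, and 1668, 1743 and 1483 at 2000 nM. For feo no 2 doses overlapped, and it fell by 0.68 ± 0.07 log2 at 2000 nM (adjusted p = 5.09e-06). The anillin gene scra fell by 0.51 ± 0.09 log2, the cytokinesis gene pbl by 0.47 ± 0.10, and the citron kinase gene sti by 0.41 ± 0.11.

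**Figure D2:**
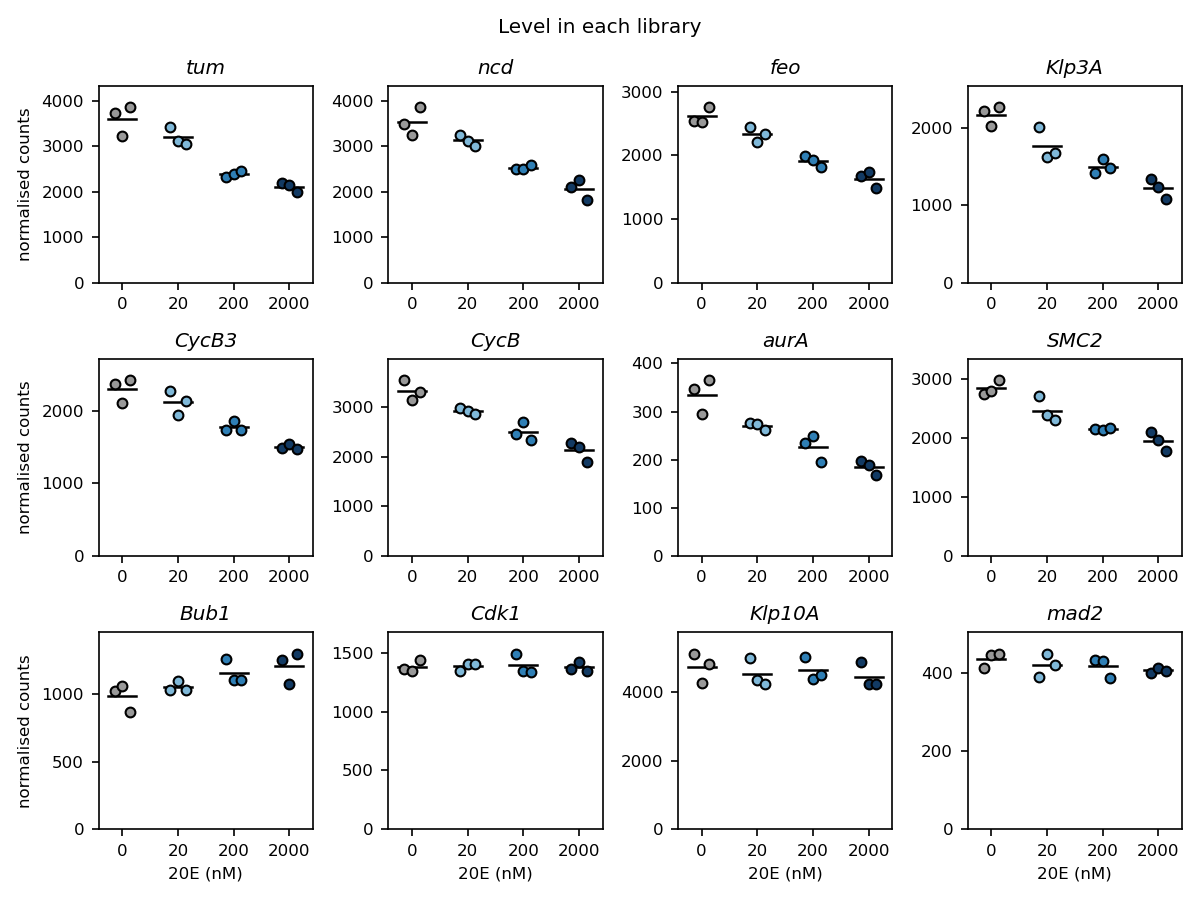
Normalised counts (y axes) in each library by 20E dose in nM (x axes) for the 8 genes with the smallest adjusted p at 2000 nM, for the gene that rose and for the 3 with the next highest fold change; points are libraries and lines are dose means. The top 8 panels step down with dose, Bub1 is higher at 2000 nM, and Cdk1, Klp10A and mad2 overlap at all doses.

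Of 6 spindle motor genes 5 fell at 2000 nM. The kinesin-14 gene ncd (FBgn0002924), a minus-end motor that focuses spindle poles, had 3487, 3251 and 3858 normalised counts at 0 nM, 3255, 3116 and 3009 at 20 nM, 2502, 2506 and 2581 at 200 nM, and 2095, 2256 and 1815 at 2000 nM. Only the 0 and 20 nM libraries of ncd overlapped, by a narrow margin. It fell by 0.78 ± 0.08 log2 at 2000 nM (adjusted p = 4.59e-06). About 15.4% of its exons overlap those of ca, and of CG7789, on the other strand, and ca fell by 0.26 log2. The gene Klp3A (FBgn0011606), a kinesin-4 of the central spindle, had 2222, 2026 and 2269 normalised counts at 0 nM, 2012, 1629 and 1670 at 20 nM, 1417, 1595 and 1481 at 200 nM, and 1346, 1239 and 1075 at 2000 nM. All 3 libraries of each higher dose lay below all 3 of the dose beneath it. Klp3A fell by 0.84 ± 0.10 log2 at 2000 nM (adjusted p = 1.22e-05), the kinesin-6 gene sub by 0.72 ± 0.11, the CENP-E homologue cmet by 0.52 ± 0.12, and the kinesin-5 gene Klp61F by 0.45 ± 0.09. About 0.8% of the cmet exons overlap those of ab on the other strand, which fell by 2.70 log2.

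The motor gene that was not called was Klp10A (FBgn0030268), a kinesin-13 that shortens microtubules. It had 5129, 4273 and 4835 normalised counts at 0 nM, 4997, 4348 and 4230 at 20 nM, 5038, 4389 and 4497 at 200 nM, and 4891, 4241 and 4227 at 2000 nM. Replicate 1 was the highest library at every dose, and the doses overlapped. The log2 fold change of Klp10A at 2000 nM was -0.09 ± 0.09, with a 95% interval of -0.29 to 0.10 and an adjusted p of 0.495.

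Among 4 spindle pole and microtubule genes the fall of asp was the largest of all 45, and the group was mixed. The product of asp gathers microtubule minus ends at spindle poles. The gene averaged 1116 ± 198 normalised counts at 2000 nM and 2182 ± 247 at 0 nM (SD, n = 3 each), a log2 fold change of -0.98 ± 0.14 with adjusted p = 0.000127. The gene tacc, whose product loads the polymerase Msps onto centrosomes, fell by 0.26 ± 0.08 log2 (adjusted p = 0.0227). Its call ended when replicate 1 at 0 nM (0.0914), or replicate 2 (0.0808) or 3 (0.0596) at 2000 nM, was left out, and asp was then alone in the group. The polymerase gene msps stood at 5560, 4083 and 4180 normalised counts at 2000 nM, against 6917, 5211 and 5650 at 0 nM. Its replicate 1 was far above the others at both doses, the log2 fold change was -0.37 ± 0.16, and the adjusted p was 0.102. The NuMA homologue mud was barely detected, with 8 to 53 reads in a library, and had -0.78 ± 0.33 log2 (adjusted p = 0.0879). An antisense RNA, asRNA:CR46473, covers 98.6% of its exons, so that its reads cannot be told apart from that RNA without the strand. Without 2000 nM replicate 1 both msps (0.0349) and mud (0.048) were called, and all 4 genes of the group fell.

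The 7 spindle checkpoint genes divided 3 ways at 2000 nM, with 4 falls, 1 rise and 2 not called. Mps1, a kinase that starts checkpoint signalling, fell by 0.43 ± 0.10 log2 (adjusted p = 0.00445) and Bub3, a partner of Bub1 and BubR1, by 0.35 ± 0.06 (0.000991). About 4.5% of the Mps1 exons overlap those of alt on the other strand, which rose by 2.18 log2. The calls of BubR1, an inhibitor of the anaphase-promoting complex, and rod, which brings dynein to kinetochores, were close to the threshold. BubR1 had -0.42 ± 0.15 log2 (adjusted p = 0.0458) and rod -0.43 ± 0.15 (0.0431). The alternatives gave an adjusted p of 0.00132 to 0.194 for BubR1 and 4.67e-05 to 0.170 for rod. In both genes replicate 1 was the highest library at every dose. The call of BubR1 ended when replicate 1 (0.157) or 3 (0.102) at 0 nM, replicate 2 at 20 nM (0.0585), replicate 3 at 200 nM (0.0605), or replicate 2 (0.0991) or 3 (0.194) at 2000 nM was left out. The same 6 libraries ended the call of rod, with an adjusted p of 0.0534 to 0.170, and so did replicate 2 at 200 nM (0.0507). The falls in the group then numbered 2 when any of those 6 was left out.

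Bub1 (FBgn0031696), a checkpoint kinase gene, was the only 1 of the 45 genes above 0 in log2 fold change at 2000 nM. It had 1022, 1064 and 871 normalised counts at 0 nM, 1031, 1099 and 1034 at 20 nM, 1264, 1107 and 1103 at 200 nM, and 1253, 1078 and 1302 at 2000 nM. The 2000 nM libraries were all above the 0 nM libraries, by little in the nearest case. The rise was 0.30 ± 0.09 log2, with adjusted p = 0.0245, and the alternatives gave 0.00794 to 0.124. The call was lost when replicate 3 at 0 nM (0.124), or replicate 1 (0.076) or 3 (0.105) at 2000 nM, was left out, and the authors' deposited table gives the gene an adjusted p of 0.0506. The checkpoint gene mad2 (FBgn0035640) had 412, 447 and 449 normalised counts at 0 nM, 390, 450 and 419 at 20 nM, 433, 430 and 388 at 200 nM, and 401, 414 and 405 at 2000 nM. Its doses overlapped, with a log2 fold change of -0.10 ± 0.08 and a 95% interval of -0.27 to 0.07. Zw10, the partner of rod, had -0.18 ± 0.07 log2 and an adjusted p of 0.0677, and was called without 200 nM replicate 1 (0.0492).

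Kinetochore and centromere genes fell in 5 of 6 cases at 2000 nM. At the outer kinetochore, which binds microtubules, Ndc80 had -0.54 ± 0.10 log2, its partner Nuf2 -0.41 ± 0.09, and Spc105R, the platform for checkpoint proteins, -0.54 ± 0.10, with adjusted p = 0.00115, 0.00363 and 0.00146. At the centromere, Cenp-C fell by 0.51 ± 0.10 log2 (adjusted p = 0.00102). The gene cal1, which loads the centromeric histone, fell by 0.22 ± 0.08 (0.0467), and the alternatives gave an adjusted p of 0.0145 to 0.156. Its call ended in 9 of the 12 fits that left out a library, the exceptions being 0 nM replicate 2, 20 nM replicate 1 and 2000 nM replicate 1. About 11.3% of the cal1 exons overlap those of cher on the other strand. That gene averaged 24448 normalised counts at 0 nM, against 1145 for cal1, and fell by 0.38 log2 at 2000 nM. The centromeric histone gene cid itself had 120 ± 26.2 normalised counts at 2000 nM and 142 ± 15.2 at 0 nM (SD, n = 3 each) and was not called, with -0.25 ± 0.15 log2 and a 95% interval of -0.59 to 0.08.

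Chromosome condensation and separation genes fell in 5 of 6 cases. SMC2 (FBgn0027783), a core subunit of condensin, had 2746, 2791 and 2971 normalised counts at 0 nM, 2702, 2377 and 2292 at 20 nM, 2153, 2125 and 2170 at 200 nM, and 2098, 1963 and 1780 at 2000 nM. Its libraries stepped down at every dose without overlap. SMC2 fell by 0.54 ± 0.07 log2 at 2000 nM (adjusted p = 6.88e-05), and the other condensin genes barr and glu fell by 0.49 ± 0.09 and 0.46 ± 0.08. Topoisomerase II, encoded by Top2, untangles sister chromatids. Per kb of annotated exon Top2 had the highest level of the 45 genes at 0 nM, 2781 normalised counts, and it fell by 0.44 ± 0.09 log2. The next levels per kb were those of polo at 2451 and Incenp at 2172, and the lowest were thr at 149, cid at 140 and mud at 3.68. The securin gene pim fell by 0.36 ± 0.08 log2 (adjusted p = 0.00315). The separase pathway gene thr had -0.21 ± 0.10 log2 and an adjusted p of 0.107, and was called without 2000 nM replicate 1 (0.0312).

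**Figure D3:**
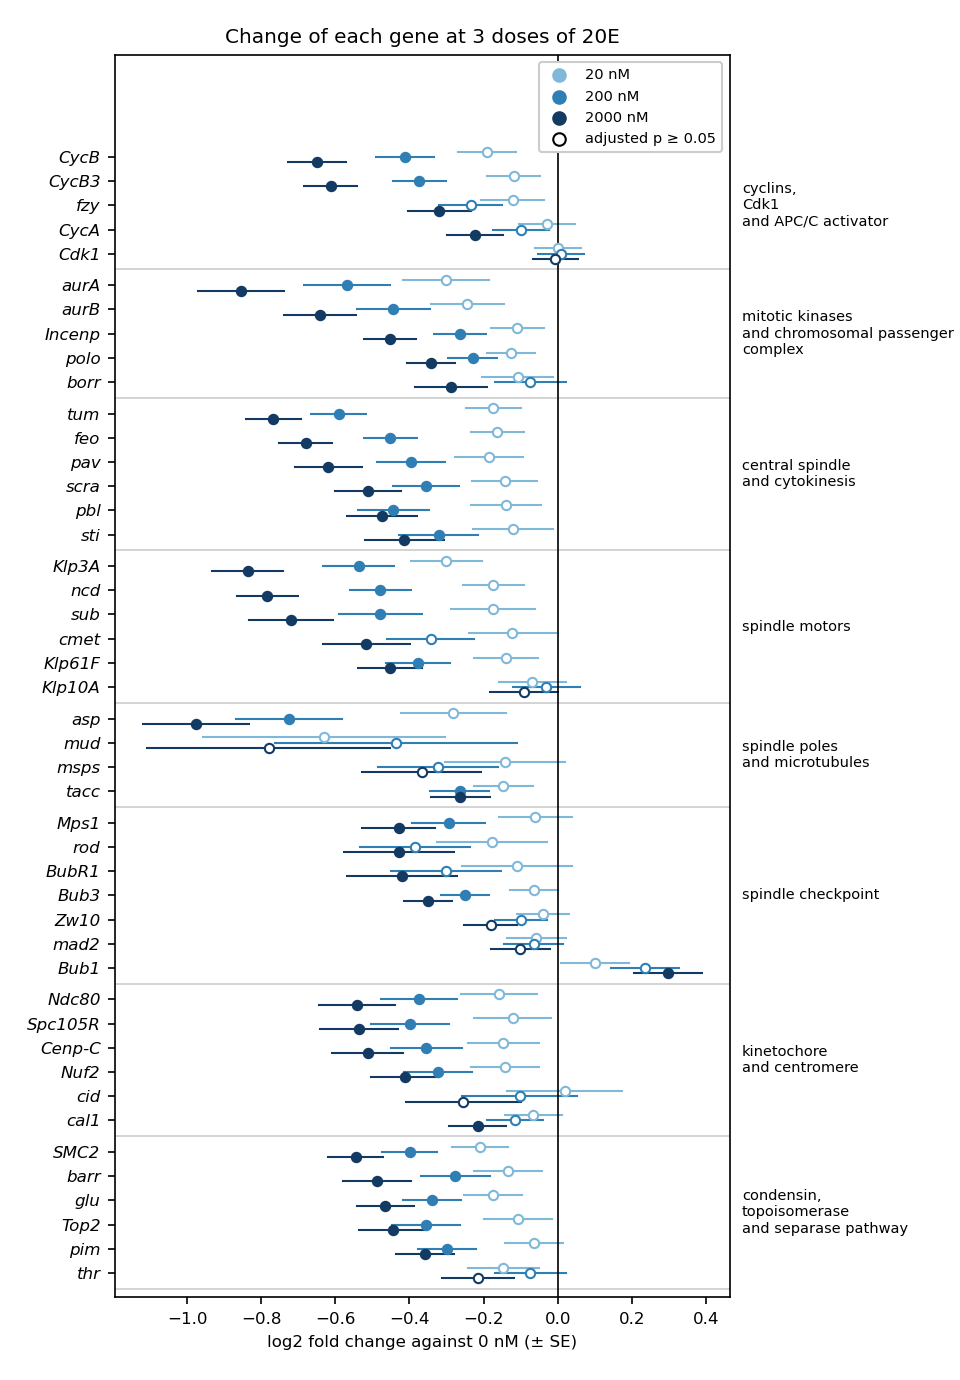
Log2 fold change against 0 nM (x axis, bars ± SE, 3 libraries per dose) of each of the 45 genes at 20, 200 and 2000 nM 20E, grouped by role; filled points have an adjusted p under 0.05. The 2000 nM points run from -0.98 for asp to 0.30 for Bub1, and no 20 nM point is filled.

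At the middle dose, 200 against 0 nM, 29 genes fell, where 10.4% of all genes tested did, and none rose, where 9.92% of all did. At an unadjusted p under 0.05, 1 was higher, where 15.1% of all genes tested were, and limma-voom called none higher. The comparisons of 20, 200 and 2000 nM share the 0 nM libraries. Called at 2000 nM and not at 200 nM were CycA, fzy, borr, cmet, BubR1, rod and cal1. For 32 genes the 200 nM libraries lay wholly below the 0 nM libraries, against 17.4% of all genes tested, and those of Bub1 lay wholly above, as for 17.1% of all. Without 0 nM replicate 3 the falls numbered 19. The fall of sti at 200 nM, 1 of the 6 cytokinesis genes, was the least firm of that group. Its call was lost when any 0 nM library was left out, when replicate 2 at 20 nM was, and when replicate 2 or 3 at 200 or at 2000 nM was, and it was lost with no filter on low values.

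At the lowest dose, 20 against 0 nM, limma called none of the 45 genes, where 1.54% of all genes tested fell and 2.97% rose. The log2 fold change was below 0 for 42 of 45, while the median of all genes tested was -0.001 log2. In 20 nM replicates 1, 2 and 3, 26, 42 and 42 of the genes lay below their 0 nM mean. The genes share these libraries, so their signs are not separate observations. At an unadjusted p under 0.05, 8 were lower, where 5.32% of all genes tested were, and none was higher, where 6.78% were, and limma-voom called none in either direction. For CycB, aurA, polo, aurB, feo, Klp3A, mud and SMC2 the 20 nM libraries lay wholly below the 0 nM libraries, which held for 8.18% of all genes tested. For none did they lie wholly above, a pattern held by 9.06% of all. Without 20 nM replicate 1, whose sum of the 45 genes was the highest of its dose, 1 gene, Klp3A, fell. The median of the 45 genes was then -0.20 log2.

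Between hormone doses, some of the 45 genes were lower at 200 and at 2000 nM than at 20 nM, and none passed the test for 2000 against 200 nM. For 200 against 20 nM 4 genes fell, tum, feo, ncd and CycB3, where 3.76% of all genes tested did, and none rose, where 4.23% did. Their log2 fold changes in that step were -0.42 ± 0.07, -0.29 ± 0.07, -0.31 ± 0.08 and -0.25 ± 0.07, with adjusted p = 0.00227, 0.0215, 0.0332 and 0.0429. Only tum remained when replicate 1 or 3 at 20 nM, or replicate 2 or 3 at 200 nM, was left out. In that step the libraries lay wholly lower for 23 genes (11.9% of all) and wholly higher for 1, Bub1 (12.5% of all). For 2000 against 200 nM limma called none of the 45, where 0.0355% of all genes tested fell and 0.166% rose. In that step 43 of 45 were below 0 and their median was -0.14 log2, while the median of all genes tested was 0.003. The genes share libraries here too. At an unadjusted p under 0.05, 11 were lower, where 5.19% of all genes tested were, and none was higher, where 5.67% were, and limma-voom called none. The 2000 nM libraries lay wholly below the 200 nM libraries for 11 genes, where 7.21% of all did. These were CycB, CycB3, Incenp, tum, pav, feo, scra, ncd, Klp3A, SMC2 and barr. For none did they lie wholly above, where 7.39% of all did. For 2000 against 20 nM 27 genes fell, where 8.04% of all did, and none rose, where 8.30% did. That count was 14 without 20 nM replicate 1 and 16 without 2000 nM replicate 3. The libraries lay wholly lower for 32 genes (16.6% of all) and wholly higher for none (16.2% of all). For both 200 and 2000 against 20 nM none was higher at an unadjusted p under 0.05, where 8.98% and 14.3% of all genes tested were, and limma-voom called none higher.

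Across the 3 contrasts with 0 nM together, limma's moderated F test called 30 of 45 genes, against 23.7% of all genes tested, and all 30 were lower at 2000 nM. Of the 45 genes, 35 had an adjusted p under 0.05 in the authors' deposited table, against 26.0% of the genes with one, and all 35 had a negative deposited log2 fold change. The 10 without one were Cdk1, borr, Klp10A, mud, Bub1, mad2, Zw10, cid, cal1 and thr. For msps the authors' deposited table gives an adjusted p of 9.06e-11. That p has the distribution of a test over all 4 doses, whereas limma did not call msps for 2000 against 0 nM. The errors differed as well. For 2000 against 0 nM the deposited log2 fold change of msps was -0.368 with an error of 0.0561, smaller than limma's SE. The source of the disagreement was not tested.

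Over the 45 genes Pearson's r between the log2 level at 0 nM and the log2 fold change at 2000 nM was -0.00632, and both share the 0 nM libraries. The deviations of single libraries varied with gene length, a relation looked for after the values were seen. In replicate 1 of every dose the longer genes stood above their dose mean. The correlation across the 45 genes between exon length in kb (log2) and a library's deviation from its dose mean was 0.700, 0.742, 0.580 and 0.726 in replicate 1 at 0, 20, 200 and 2000 nM. In the other libraries it ran from -0.736 to 0.0237. Over all genes with an annotated length the same correlation in replicate 1 was 0.167 to 0.250. Among the 11 genes of at least 5 kb the median deviation in replicate 1 was 0.16 to 0.19 log2. Across the 45 genes r between length and the fold change at 2000 nM was -0.174, and within replicate 1, 2 and 3 taken apart the median log2 difference of 2000 from 0 nM was -0.43, -0.37 and -0.62. These points share libraries and depth, and genes are not independent replicates. The cause of these deviations was not tested.

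**Figure D4:**
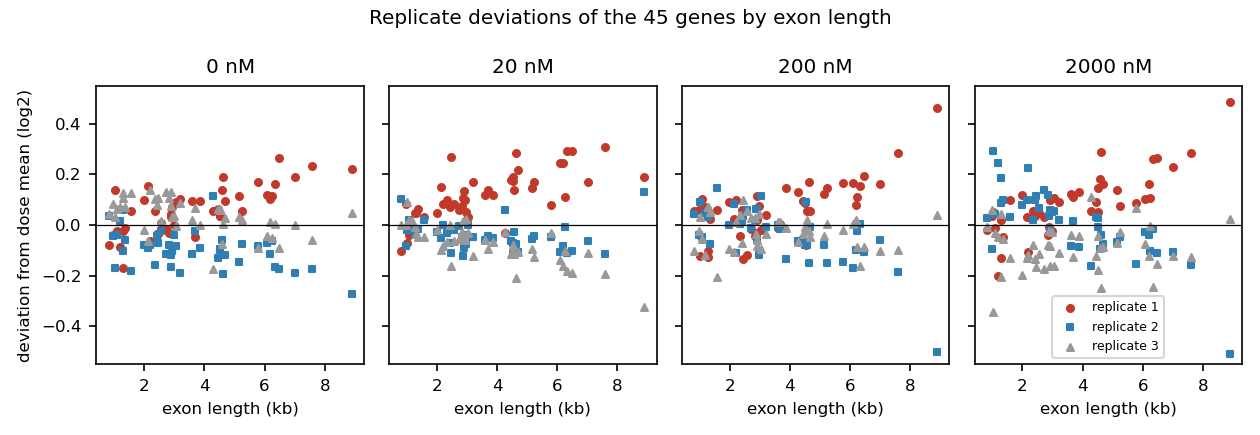
Deviation of each of the 45 genes from its dose mean (y axis, log2) against annotated exon length in kb (x axis), 1 panel per 20E dose and 1 marker per replicate number. Replicate 1 rises with length at each dose, with r across the genes of 0.700, 0.742, 0.580 and 0.726 from 0 to 2000 nM.

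Other genes of the pathway were taken from 7 lists with 91 entries, 86 of them tested. At 2000 against 0 nM 31 of the 86 fell (36.0%) and 6 rose (6.98%), with a median of -0.18 log2, where 15.5% of all genes tested fell and 15.4% rose. The lists below are to be read against those same shares. Mitotic entry and exit regulators held 6 falls among 14. The Cdc25 phosphatase gene stg, which activates Cdk1, fell already at 20 nM, by 0.52 log2 (adjusted p = 0.00681). It averaged 2068 ± 18.4 normalised counts at 2000 nM and 4156 ± 592 at 0 nM (SD, n = 3 each), with adjusted p = 4.41e-06. The Cdk1 subunit gene Cks30A fell by 0.48 ± 0.07 log2 at 2000 nM. Without 0 nM replicate 1 the falls in that list numbered 3. Of 8 tested subunits of the anaphase-promoting complex 3 fell, led by APC4 at -0.53 ± 0.11 log2 and ida at -0.48 ± 0.11. Of 4 further condensin subunits 2 fell, Cap-D2 by 0.72 ± 0.13 log2 and Cap-G by 0.40 ± 0.09. Of 12 sister chromatid cohesion genes 2 fell (16.7%), near the 15.5% of all genes tested, and the median was -0.10 log2, with the acetyltransferase gene eco at -0.27 ± 0.07 and the cohesin protector mei-S332 at -0.29 ± 0.08. Of these, eco was lost without 2000 nM replicate 3 (0.0544) and mei-S332 without 0 nM replicate 3 (0.0634) or 2000 nM replicate 1 (0.0588).

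Spindle genes outside the 45 included both falls and rises. Among 12 other kinetochore, checkpoint and motor genes 6 fell and 1 rose, where 15.5% and 15.4% of all genes tested did, with a median of -0.33 log2. The CENP-E related gene cana fell by 0.60 ± 0.07 log2 and the kinesin-8 gene Klp67A by 0.80 ± 0.10, while the microtubule plus-end gene chb rose by 0.30 ± 0.11 (adjusted p = 0.0479). Among 25 centrosome, gamma-tubulin and augmin genes 11 fell and 2 rose, also with a median of -0.33 log2. Of these, mars fell by 0.86 ± 0.09 log2 and the centriole gene spd-2 by 0.61 ± 0.09, while the augmin gene wac rose by 0.34 ± 0.08 and the pericentrin-like gene Plp by 0.25 ± 0.09 (adjusted p = 0.0471). The rise of chb had adjusted p = 0.0919 without 0 nM replicate 2, 0.169 without 0 nM replicate 3, and 0.158 and 0.118 without 2000 nM replicates 1 and 3. The rise of Plp had 0.0655, 0.192, 0.155 and 0.167 without those same libraries. Both also sat just over the threshold when a 20 nM library was left out, at 0.0543, 0.0631 and 0.0552 for chb and 0.0547, 0.0632 and 0.0600 for Plp, and without 200 nM replicate 3 (0.0563 and 0.0622). With all libraries, both rises were lost with no filter on low values (0.0536 for chb, 0.0562 for Plp) and with limma-voom (0.0543, 0.0561), and that of Plp was lost with TMM scaling (0.053) and with only the 2000 and 0 nM libraries (0.0912).

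Contractile ring and septin genes were mostly not called. Of 11 tested 1 fell and 3 rose, where 15.5% of all genes tested fell and 15.4% rose, and the median was 0.05 log2. The formin gene dia, which nucleates actin at the ring, fell by 0.58 ± 0.09 log2. Profilin, encoded by chic, rose by 0.45 ± 0.08, the septin gene Septin5 (Sep5 in the deposited table) by 0.44 ± 0.08, and the myosin light chain gene sqh, named after its value was seen, by 0.22 ± 0.06. The call of sqh ended without 0 nM replicate 1 (0.0728) or 2000 nM replicate 2 (0.072). Many of these proteins also serve the cortex of cells that are not dividing.

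Of 40 DNA replication genes tested, 4 fell at 200 nM, near the 10.4% of all genes tested, with a median of -0.13 log2. At 2000 nM 21 fell (52.5%) and 1 rose, where 15.5% of all fell and 15.4% rose, with a median of -0.29, each against 0 nM. At 2000 nM the clamp loader gene RfC4 fell by 0.59 ± 0.07 log2, the MCM helicase gene dpa by 0.44 ± 0.07, and chif, whose product activates the kinase that fires origins, rose by 0.41 ± 0.08. The falls at 2000 nM numbered 12 without 0 nM replicate 3 or without 2000 nM replicate 3, and those at 200 nM numbered 2 without 0 nM replicate 3 or without 200 nM replicate 3. Whether the replication genes and the 45 mitosis genes differ as groups was not tested.

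**Figure D5:**
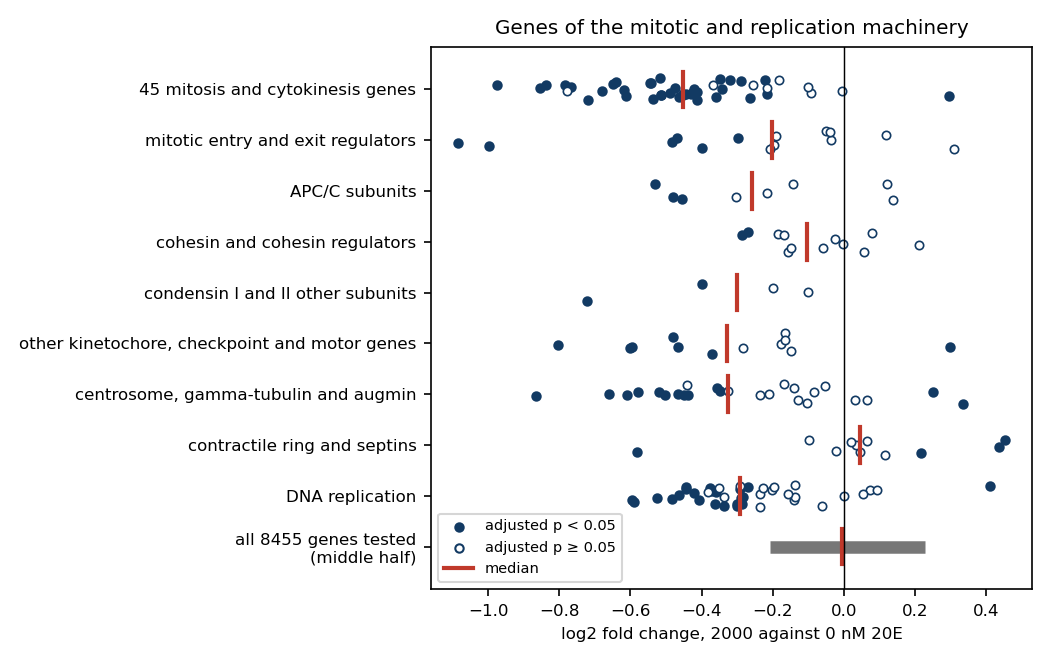
Log2 fold change of 2000 against 0 nM 20E (x axis) for the genes of each list (rows); each point is a gene, filled where its adjusted p is under 0.05, the red line is the list's median and the grey bar spans the middle of the distribution of all 8455 genes tested, from the lower to the upper quartile. The medians are -0.45 for the 45 mitosis and cytokinesis genes, -0.29 for DNA replication and 0.05 for contractile ring and septins.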

How the data were processed

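RNA of 12 libraries was compared, 3 per dose of 20E. Per the labels' protocols, RNA was extracted with RNeasy and made into libraries with a directional NEBNext Ultra II poly(A) kit, although the labels also name total RNA. Whether replicates come from separate cultures or animals is not stated in the labels, so the p-values cover the spread among these libraries and nothing wider. The submitters' processing notes name DESeq2 1.32.0, Subread 2.0.1, HISAT2 2.1.0 and SAMtools 1.13. Neither the genome build nor the strand setting of the counting is given in the sources used here. No coordinates are therefore printed, and 17 of the 45 genes share exon sequence with a gene on the other strand.

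The deposited normalised counts are a signal, read counts scaled by the authors with 1 size factor for each library. Within each library 100% of the values were whole multiples of 1 read within 0.001, and 1 read equalled 0.565 to 1.69 normalised counts. The authors' deposited table of results gives a test score, a log2 fold change of 2000 against 0 nM, its error, and raw and adjusted p-values. Of the raw p-values 100% equalled a chi-square p with 3 degrees of freedom for the score, within 0.001.

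Values were taken as log2(normalised count + 1) and a linear model was fitted in R 4.3.3 (limma 3.58.1), with 1 mean per dose, all 12 libraries, 8 residual degrees of freedom and an intensity trend. The two-sided p-values received a Benjamini-Hochberg adjustment across 8455 genes, with a threshold of 0.05. For the 45 genes the log2 fold changes had a median SE of 0.09. The members, the role groups and the other lists were chosen with earlier results of these data known, and no test was made over a list. Values in every library are given for the 8 genes with the smallest adjusted p at 2000 nM, for those called between hormone doses, and for those with the highest log2 fold change at 2000 nM; msps was added after its values were seen. Other lists name up to 2 called genes per direction by adjusted p. Exon lengths, overlaps and current symbols came from the BDGP6.54 annotation, in which 12167 of the 12216 identifiers were found. Alternatives were the pseudocount, the filter, TMM scaling, limma-voom on the recovered reads, a replicate block, fits of only the doses compared, and leaving out each library.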

Additional observations from a re-analysis of the deposited data

How the results depend on the processing

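No gene called at 2000 against 0 nM changed direction under any alternative run. The log2 fold change of Cdk1, not called, lay between -0.03 and 0.02. Of the 36 falls at 2000 against 0 nM, 29 were called under all 20 alternatives, and the other 7 were lost under at least 1, namely borr, BubR1, cal1, CycA, fzy, rod and tacc. Leaving out each library in turn gave 29 to 38 falls and 0 to 1 rises at 2000 nM, 19 to 30 falls at 200 nM and 0 to 1 at 20 nM, each against 0 nM, with medians of -0.51 to -0.42, -0.40 to -0.31 and -0.20 to -0.09 log2. It gave 1 to 4 falls for 200 against 20 nM, 14 to 28 for 2000 against 20 nM, and 27 to 31 genes in the F test. With only the 2000 and 0 nM libraries fitted, 0 genes rose, since Bub1 had an adjusted p of 0.0592. TMM scaling moved the median of all genes by under 0.02 log2. The replicate numbers were not used as pairs in the main fit. Of 18 same-numbered pairs 7 correlated above 0.1 (r from -0.367 to 0.396), and 6 of 12 libraries were closest to their own number. The mitosis and cytokinesis genes nevertheless shared a shift in replicate 1. Their median there lay above the dose mean by 0.06, 0.11, 0.06 and 0.09 log2 from 0 to 2000 nM. The other replicate numbers lay on both sides of it. Whether same-numbered libraries share a source is not stated in the labels. With the replicate number as a block, 13 genes fell for 200 against 20 nM, 35 passed the F test, msps, mud and thr were called at 2000 nM, and 5 subunits of the anaphase-promoting complex fell there. The planned count models other than limma-voom and the planned promoter motif search were not run. Depth limits mud, with 8 to 53 reads in a library.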
